A study of Mus musculus with 24 samples.

Results

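Cxcl1, Cxcl2, Cxcl3 and Cxcl5 encode the chemokines of this series that attract neutrophils, and they were followed across all 8 groups of genotype and treatment. They are 4 of the 18919 genes in the deposited count table and were taken by their names. The cells were primary mouse microglia from animals whose age is given as p0. Wild-type cells (WT) came from C57BL/6 mice. Knockout cells (KO) came from the strain B6.129S4-Cd14tm1Frm/J, whose germline lacks Cd14 in all cells and whose name marks a 129 origin of the altered allele. In each genotype the cultures stayed untreated or received a stimulus for 3 h. The stimuli were 0.1 ng/ml Re-LPS, 10 ng/ml Re-LPS and fibronectin from mouse (FN) at 100 µg/ml. Each group had 3 libraries from separate cell preparations, so there were 24 in all. Levels are counts scaled to a common library size (CPM), with each library's size corrected by edgeR's TMM factor (trimmed mean of M-values). Changes are log2 fold changes ± standard error from edgeR's quasi-likelihood test over all 24 libraries, and a gene is called at a Benjamini-Hochberg adjusted p under 0.05.

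These 4 chemokines carry the ELR motif ahead of the first cysteines and act through the receptor CXCR2, which neutrophils bear at high levels. Macrophages and microglia transcribe them from compact genes within minutes to hours of Toll-like receptor signalling, and NF-kB is a known activator of their promoters. LPS binds the TLR4 complex, to which CD14 delivers it, and fibronectin is a plasma and matrix protein that has been described as a signal to microglia when it leaks into brain tissue. In the brain such chemokines are known for drawing neutrophils after infection or injury.

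The genes lie in 1 cluster on mouse chromosome 5, all on the plus strand (GRCm38, GENCODE vM21). Cxcl5 spans chr5:90759360-90761624, Cxcl3 chr5:90786103-90789600, Cxcl1 chr5:90891241-90893115 and Cxcl2 chr5:90903871-90905938. In RefSeq the stretch from Cxcl5 to Cxcl2 covers 146.6 kb and holds 7 genes, with Ppbp, Pf4 and Cxcl15 between the members. RefSeq promoters of this build were at hand for 3 of the 4 members and are shown for the stretches of sequence they share. The sequences run 5′ to 3′ on the plus strand, and capitals mark an NF-kB motif and a TATA-like stretch.
Cxcl1, chr5:90891125-90891240: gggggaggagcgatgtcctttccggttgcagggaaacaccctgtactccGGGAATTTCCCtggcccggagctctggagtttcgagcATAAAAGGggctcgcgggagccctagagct
Cxcl2, chr5:90903779-90903870: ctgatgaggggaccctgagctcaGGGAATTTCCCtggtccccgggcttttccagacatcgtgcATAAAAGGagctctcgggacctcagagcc
Cxcl3, chr5:90785981-90786100: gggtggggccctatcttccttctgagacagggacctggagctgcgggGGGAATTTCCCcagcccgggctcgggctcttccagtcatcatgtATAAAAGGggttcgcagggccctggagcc

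All 3 promoters hold the same bases GGGAATTTCC, which match the kappaB consensus. Its first base lies 71 bases before the RefSeq start in Cxcl1, 97 in Cxcl2 and 73 in Cxcl3. The RefSeq start of Cxcl2, chr5:90903899, lies past the end of the printed stretch. The search covered, on both strands, windows from 250 bases before to 50 after the RefSeq start. The printed stretches are parts of these windows, and of 32851 such RefSeq promoters 8.46% match the consensus. The exact GGGAATTTCC, searched after the sequences had been read, is in 29 of them (0.0883%). ATAAAAGG, also searched afterwards, begins 34, 57 and 29 bases before the start and is in 1.76% of promoters. TATAAA was found in Cxcl3 (13.6% of promoters), where it overlaps ATAAAAGG. GGGCGG (35.7%) was found 139 bases before the start in Cxcl2, outside the printed stretch. TGANTCA (7.81%) and TTNNGNAAT (11.5%) were in none of the 3 windows. A match in the letters is a description and not a measured binding site.

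The transcripts share a further sequence feature. ATTTA, the core of AU-rich elements that bind mRNA decay factors such as tristetraprolin, occurs 7 times in the 595 bases of the Cxcl1 3′ UTR, or 11.8 times per kb. Cxcl2 has 11 copies in 1497 bases (7.35 per kb), Cxcl3 has 5 in 648 (7.72 per kb) and Cxcl5 has 5 in 1114 (4.49 per kb). The median over 18147 genes was 1.48 per kb, and 0.292%, 1.97%, 1.61% and 8.91% of genes were at least as dense as Cxcl1, Cxcl2, Cxcl3 and Cxcl5. Cxcl2 and Cxcl3 are close paralogs. They share 61 windows of 50 bases, which is 3.37% of those in the Cxcl2 transcript and 6.31% of those in Cxcl3, so reads from that stretch could be assigned to either gene or dropped. Cxcl1 shared no such window with another gene.

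Total counts ran from 14939019 to 22143774 per library, and 13294 genes passed the filter on low counts, all 4 members among them. Cxcl5 passed only through KO cells at 10 ng/ml Re-LPS, so its values in comparisons with that group are given as a description, with its p from the fit with no filter, and are left out of the counts there. Cd14, the targeted gene, had 338 to 5330 CPM in WT libraries and 2.14 to 6.37 CPM in KO libraries. All 8 microglial markers were present, summing to 5650 to 8620 CPM, whereas the 6 neutrophil markers listed in the table (of 10) summed to 0.468 to 2.12 CPM in every group. The fibroblast and vascular list (9 of 9 listed) summed to 1.16 to 3.21 CPM untreated and to 10.8 to 31.4 CPM in WT FN and in both genotypes at 10 ng/ml Re-LPS. Pdgfrb made up nearly all of that rise, reaching 29.3 CPM, while Cldn5 and Lum had at most 1 count in any library; the part of such cells in the chemokine levels was not tested. The oligodendrocyte lineage list (10 of 10 listed, none at 0) summed to 224 to 478 CPM in WT and 156 to 257 CPM in KO libraries, the astrocyte list (9 of 9) to 11.5 to 45 CPM and the neuron list (5 of 6) to 0.949 to 37.4 CPM, the latter highest in KO cells. Of the libraries, 3 had over 2% of counts on the ribosomal precursor Rn45s, namely WT replicate 3 at both Re-LPS doses and KO replicate 2 at 0.1 ng/ml. In bulk RNA, fewer expressing cells and less RNA per cell cannot be told apart.

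Untreated microglia held little of any member. Cxcl1 was at 0.727, 0.237 and 0.148 CPM in the 3 untreated WT libraries and at 0.434, 0.293 and 0.61 CPM in the KO libraries. Cxcl2, the most abundant of the 4, was at 14.8, 4.64 and 2.17 CPM in WT and at 7.57, 2.38 and 2.61 CPM in KO cells. Cxcl3 stood at 1.14, 0.142 and 0.345 CPM in WT and at 0.53, 0.257 and 0.166 CPM in KO cells. The genotypes overlapped for each of these genes. Cxcl5 had 1, 0 and 0 counts in WT libraries and no count in the 3 KO libraries. None of the 4 was called between untreated KO and WT cells by edgeR, where 0.00752% of all tested genes were, and none had an unadjusted p under 0.05 or was called by DESeq2 or limma.

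**Figure D1:**
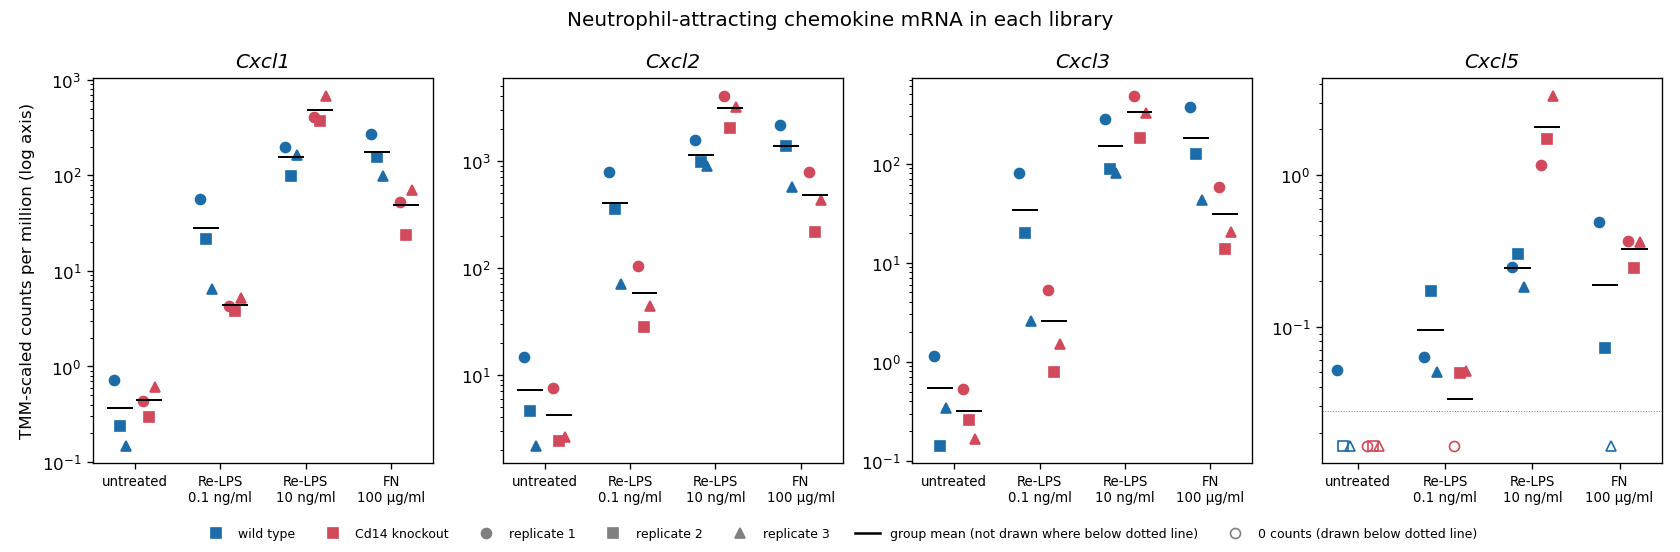
TMM-scaled CPM of Cxcl1, Cxcl2, Cxcl3 and Cxcl5 in each of the 24 libraries on log axes that differ between panels, with WT in blue, KO in red, the replicate number as the marker shape and the group mean as a bar. KO libraries at 10 ng/ml Re-LPS were the highest group for each gene, reaching 678 CPM for Cxcl1, and open symbols below the dotted line had 0 counts.

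In WT microglia, 10 ng/ml Re-LPS raised all 4 chemokines. Cxcl1 reached 198, 99.1 and 165 CPM, every library far above the untreated ones, and its change was 8.69 ± 0.85 (adjusted p = 1.07e-07, n = 3 a group). Cxcl2, which has long been known as macrophage inflammatory protein 2, reached 1551, 970 and 894 CPM and rose by 7.31 ± 1.03 (adjusted p = 9.39e-06). For Cxcl3 the libraries held 279.8, 89.0 and 79.4 CPM, a rise of 8.11 ± 1.37 (adjusted p = 7.18e-05). Cxcl5 stayed scarce, with 3, 4 and 2 counts, and the ratio of its pooled counts to the single untreated count was 15 with a 95% counting interval of 2.08 to 658 (adjusted p = 0.024). For each of the 4 genes every stimulated library lay above the untreated ones, as held for 26.7% of all genes. Among all tested genes 49.4% were called in this comparison, so a call alone sets the members little apart. Their median log2 change was 7.71 against -0.01 over all tested genes. The Cxcl5 call was lost without WT 10 ng/ml replicate 2 (adjusted p = 0.0576), WT untreated replicate 2 (0.0827) or replicate 3 (0.0836). It was also lost with library totals in place of TMM (0.0539), and limma did not make it (0.229).

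The lower dose gave smaller and more variable levels in WT cells. At 0.1 ng/ml Cxcl1 was at 56.6, 21.6 and 6.54 CPM, Cxcl2 at 792, 355 and 69.97 CPM and Cxcl3 at 79.6, 20.1 and 2.57 CPM. Replicate 1 was the highest and replicate 3 the lowest for all 3 genes. None of these libraries overlapped an untreated one for the 3 genes, a separation found upwards in 16.2% of all genes. Against untreated cells Cxcl1 rose by 6.24 ± 0.79 (adjusted p = 1.72e-05), Cxcl2 by 5.82 ± 0.97 (adjusted p = 0.000289) and Cxcl3 by 5.97 ± 1.28 (adjusted p = 0.0029). Cxcl5 had 1, 3 and 1 counts and was not called (adjusted p = 0.322). Of all tested genes 15.6% were called here.

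From 0.1 to 10 ng/ml in WT cells, 1 of the 4 genes was called, beside 32.2% of all genes. Cxcl1 rose by a further 2.45 ± 0.60 (adjusted p = 0.00429), and its libraries did not overlap between the doses, as was so for 3 of the 4 and, upwards, for 20.2% of all genes. Cxcl2 differed by 1.49 ± 0.80 (adjusted p = 0.176) without overlap, and Cxcl3 by 2.13 ± 1.0 (adjusted p = 0.12) with overlap. With the preparations as blocks nested in genotype, Cxcl2 (2.02, adjusted p = 0.000565) and Cxcl3 (2.68, adjusted p = 5.52e-05) were called as well, which made 3 of the 4. That fit called 7576 of 13294 genes, so these calls set the members little apart.

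Fibronectin brought WT cells to levels that could not be separated from those of 10 ng/ml Re-LPS. Cxcl1 was at 271, 156 and 97.9 CPM, Cxcl2 at 2168, 1385 and 570.1 CPM and Cxcl3 at 374, 125 and 42.6 CPM. These values lay above every untreated library, a position shared by 26.8% of all genes, and overlapped those of the Re-LPS group for each gene. Against untreated cells the changes were 8.88 ± 0.85 for Cxcl1 (adjusted p = 8.53e-08), 7.58 ± 1.04 for Cxcl2 (adjusted p = 6.81e-06) and 8.38 ± 1.39 for Cxcl3 (adjusted p = 5.47e-05). Cxcl5 had 7, 1 and 0 counts, and was called at an adjusted p of 0.0433. That call was lost without any one of 11 libraries, with adjusted p of 0.715 without WT FN replicate 1, 0.13 and 0.131 without WT untreated replicates 2 and 3, and 0.0504 to 0.052 without KO FN replicate 1, 2 or 3, KO 10 ng/ml replicate 2, WT 10 ng/ml replicate 1, 2 or 3 or WT 0.1 ng/ml replicate 1. It was also lost with library totals (0.105), no filter (0.058), the replicate block (0.0526), limma (0.426) and without the Rn45s-rich libraries (0.0653). With Cxcl5, 4 of the 4 were called, where 50.2% of all genes were.

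Set directly against 10 ng/ml Re-LPS, FN gave WT differences of 0.19 for Cxcl1 (95% interval -1.02 to 1.40), 0.27 for Cxcl2 (-1.38 to 1.92) and 0.27 for Cxcl3 (-1.77 to 2.31). None of the 4 members was called by edgeR, DESeq2 or limma, none had an unadjusted p under 0.05, and 0% of all genes were called by edgeR. Those intervals still allow a difference of more than 2-fold either way for each gene.

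In KO cells the same Re-LPS dose that raised 3 members in WT cells left them low. At 0.1 ng/ml Cxcl1 was at 4.27, 3.84 and 5.24 CPM, above all untreated KO libraries, and rose by 3.34 ± 0.74 (adjusted p = 0.0387). Cxcl2 was at 104, 27.9 and 44.3 CPM (3.81 ± 0.89, adjusted p = 0.0576) and Cxcl3 at 5.34, 0.787 and 1.53 CPM (2.99 ± 1.28, adjusted p = 0.918), both above the untreated libraries without passing the test. Such separation upwards was found in 4.4% of all genes. Cxcl5 had 0, 1 and 1 counts. Thus 1 of the 4 was called beside 0.73% of all genes. The Cxcl1 call was lost without any one of 13 libraries, among them each untreated KO library (adjusted p = 0.172, 0.288 and 0.108 without replicates 1, 2 and 3) and each KO library of this dose (0.0929, 0.0759 and 0.0987). Cxcl2 was called with the preparations as nested blocks (3.76, adjusted p = 0.000188), which gave 2 calls where 515 of 13294 genes were called.

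At 10 ng/ml the KO cells held the highest levels of the series for each of the 4 genes. Cxcl1 was at 411, 373 and 678 CPM, Cxcl2 at 4045, 2018 and 3211 CPM, and Cxcl3 at 481, 183 and 320 CPM. Cxcl5, which was nearly absent elsewhere, had 18, 34 and 49 counts, or 1.17, 1.72 and 3.32 CPM. For Cxcl1, Cxcl2 and Cxcl3 every value lay above those of the untreated KO libraries, as did 22.3% of all genes. The rises were 10.11 ± 0.88 for Cxcl1 (adjusted p = 5.13e-08), 9.53 ± 1.13 for Cxcl2 (adjusted p = 2.04e-06) and 9.98 ± 1.48 for Cxcl3 (adjusted p = 2.66e-05). Cxcl5 was at least 44.5-fold higher than in untreated KO cells, against a floor of 3 counts over the untreated group (adjusted p = 9.35e-05 with no filter). The other 3 were all called, as were 42.9% of tested genes.

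The step between the doses was steep without CD14. From 0.1 to 10 ng/ml Cxcl1 rose by 6.77 ± 0.74 (adjusted p = 1.25e-06), Cxcl2 by 5.72 ± 0.96 (adjusted p = 0.000122) and Cxcl3 by 6.99 ± 1.26 (adjusted p = 0.000266). For Cxcl5 the ratio of pooled counts, 101 to 2, was 64.0 with a counting interval of 17.3 to 536 (adjusted p = 0.000668 with no filter). Cxcl1, Cxcl2 and Cxcl3 were free of overlap between the doses (20% of all genes were, upwards), and these 3 were called beside 36.7% of all genes.

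Fibronectin raised the chemokines in KO cells to intermediate levels. Cxcl1 was at 52.1, 23.8 and 70.05 CPM, Cxcl2 at 795, 215.5 and 433 CPM and Cxcl3 at 58.5, 13.7 and 20.2 CPM. Every value exceeded the untreated KO libraries, a separation seen in 14.6% of all genes. Changes were 6.79 ± 0.79 for Cxcl1 (adjusted p = 7.57e-06), 6.85 ± 1.02 for Cxcl2 (adjusted p = 0.000103) and 6.56 ± 1.34 for Cxcl3 (adjusted p = 0.00197). Cxcl5 had 7, 6 and 6 counts, at least 6.93-fold above the same floor (adjusted p = 0.00748). With 16.4% of all genes called, all 4 members were. The Cxcl5 call was not made by limma (adjusted p = 0.17).

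In KO cells FN gave lower levels than 10 ng/ml Re-LPS. Cxcl1 was lower with FN by a log2 change of -3.33 ± 0.62 (adjusted p = 0.00117), Cxcl2 by -2.68 ± 0.83 (adjusted p = 0.0319) and Cxcl3 by -3.41 ± 1.06 (adjusted p = 0.0325). Cxcl5, with 19 pooled counts against 101, had an adjusted p of 0.0706 with no filter. Cxcl1, Cxcl2 and Cxcl3 did not overlap between these groups, where 14.4% of all genes were separated downwards, and these 3 were called where 17% of all genes were. The Cxcl2 and Cxcl3 calls were lost without KO FN replicate 2 (adjusted p = 0.135 and 0.134) or replicate 3 (0.0979 and 0.115) and without KO 10 ng/ml replicate 1 (0.0909 and 0.0939) or replicate 3 (0.0586 and 0.0551).

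For Cxcl1, Cxcl2 and Cxcl3 the difference between KO and WT cells had opposite signs at the 2 doses of Re-LPS. At 0.1 ng/ml Cxcl1 was lower in KO cells, by -2.66 ± 0.62 (adjusted p = 0.00965), with no overlap between the genotypes, a separation downwards found in 11.4% of all genes. Cxcl2 differed by -2.79 ± 0.83 (adjusted p = 0.0423) and Cxcl3 by -3.72 ± 1.10 (adjusted p = 0.0403), each with overlapping libraries, since WT replicate 3 lay below the highest KO library. Cxcl5, with 5 WT and 2 KO counts, was not called (adjusted p = 0.588). Of the 4 genes, 3 were thus lower in KO cells, beside 9.3% of all genes called in either direction, and their median difference was -2.73 against 0.02. WT replicate 1 weighed heavily, since without it the differences were -1.66 for Cxcl1 (adjusted p = 0.116), -1.86 for Cxcl2 (0.277) and -2.13 for Cxcl3 (0.334). The Cxcl2 call was lost without any one of 9 libraries and the Cxcl3 call without any one of 6, and in a fit of these 6 libraries alone no member was called (adjusted p = 0.146, 0.199 and 0.23).

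At 10 ng/ml all 4 estimates were higher in KO cells. Cxcl5 had 101 pooled counts in KO and 9 in WT libraries, a log2 difference of 3.06 with no filter (adjusted p = 0.0455). Cxcl1 differed by 1.66 ± 0.58 (adjusted p = 0.0623, 95% interval 0.42 to 2.90) and Cxcl2 by 1.44 ± 0.79 (adjusted p = 0.272), and for both every KO library lay above every WT library. Cxcl3 differed by 1.13 ± 0.97 (adjusted p = 0.547) with overlap. None of these 3 was called by edgeR, where 15.9% of all genes were, and at an unadjusted p under 0.05 there was 1, Cxcl1. Cxcl1 alone of the 3 was called by DESeq2 (adjusted p = 0.0274) and by limma (0.0405). Separation in the higher direction, as for Cxcl1 and Cxcl2, held for 14.1% of all genes. At this dose the oligodendrocyte lineage markers summed to 225 to 478 CPM in WT and 156 to 211 CPM in KO libraries without overlap, with Cnp at 124 to 137 and 37.3 to 74.8 CPM and Olig2, a lineage-defining factor, at 1.56 to 13.2 and 0.407 to 1.97 CPM. Their sums were 254 to 440 against 197 to 253 CPM at 0.1 ng/ml and 255 to 467 against 179 to 257 CPM with FN, and their part in the genotype differences was not tested. Whether the replicate numbers pair the libraries across genotypes is uncertain. With the number as a block Cxcl1 (1.74, adjusted p = 0.0123), Cxcl2 (1.48, 0.032) and Cxcl3 (1.41, 0.0449) were called, where 3337 of 13294 genes were. With the filter, Cxcl5 had an adjusted p of 0.0358, and that call was lost without the 3 libraries rich in Rn45s (2.88, adjusted p = 0.128) and without KO replicate 2 (0.0538) or 3 (0.142) or WT replicate 1 (0.103), 2 (0.0895) or 3 (0.11).

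With FN the KO cells were again lower for Cxcl1, by -1.85 ± 0.59 (adjusted p = 0.0181) with no overlap, as for 20.7% of all genes in that direction. Cxcl2 differed by -1.51 ± 0.80 (adjusted p = 0.152) and Cxcl3 by -2.55 ± 1.02 (adjusted p = 0.0562), both with overlap, while Cxcl5 differed by 0.76 ± 0.94 (adjusted p = 0.592). Hence 1 of the 4 was called, in a comparison in which 38.6% of all genes were. With the replicate block 3 were called, namely Cxcl1 with Cxcl2 (-1.5, adjusted p = 0.0169) and Cxcl3 (-2.39, adjusted p = 0.000928), where 6654 of 13294 genes were. The Cxcl1 call was lost without KO replicate 2 (adjusted p = 0.0869) or WT replicate 1 (0.0983) and with library totals in place of TMM (-1.18, adjusted p = 0.0616), a scaling that moves the median gene by 0.66 in this comparison.

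**Figure D2:**
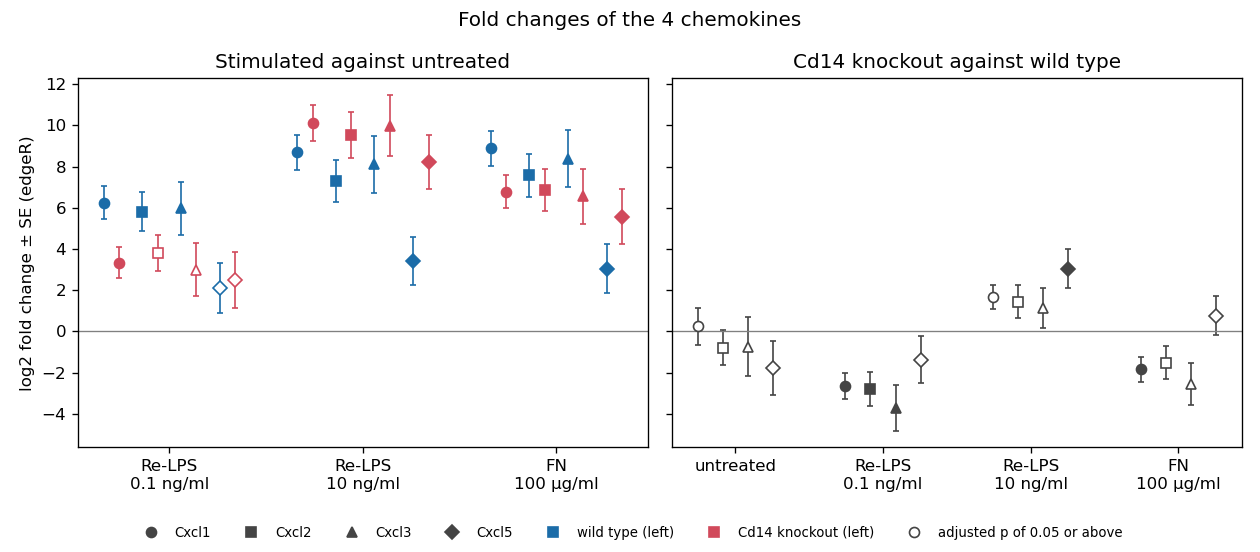
Log2 fold change ± SE (edgeR, 3 libraries a group) of each stimulus against untreated cells by genotype on the left and of KO against WT cells at each treatment on the right, with open symbols at an adjusted p of 0.05 or above. Cxcl1, Cxcl2 and Cxcl3 lay below 0 in KO cells at 0.1 ng/ml (-2.66, -2.79 and -3.72) and above it at 10 ng/ml (1.66, 1.44 and 1.13), and the fitted Cxcl5 changes against KO groups at or near 0 counts depend on the prior count.

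Whether the genotypes differed in their response was tested as interactions. Against untreated cells none of the 4 was called at 0.1 ng/ml (2.29% of all genes were), at 10 ng/ml (5.28%) or with FN (23.1%). At an unadjusted p under 0.05 there was 1 member at 0.1 ng/ml and 0 with FN. At 10 ng/ml there was only Cxcl5, which is left aside there. DESeq2 called 1, 0 and 0 of the 4, and limma called only Cxcl5, at 10 ng/ml. The low and scattered untreated counts enter each of these values. At 0.1 ng/ml the interaction was -2.90 ± 1.09 for Cxcl1 (adjusted p = 0.257), and at 10 ng/ml it was 2.22 ± 1.15 for Cxcl2 (adjusted p = 0.391). The nested blocks called the latter (1.94, adjusted p = 0.0397), where they called 2887 of 13294 genes.

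The stimulated groups were also compared directly, in 2 interactions added after the data had been seen. The step from 0.1 to 10 ng/ml was larger in KO cells for Cxcl1, by 4.32 ± 0.85 (adjusted p = 0.00527), and for Cxcl2, by 4.23 ± 1.15 (adjusted p = 0.0384). Cxcl3 differed by 4.85 ± 1.46 (adjusted p = 0.0654) and Cxcl5, with 2 counts in KO cells at the low dose, had an adjusted p of 0.166 with no filter. Cxcl1 and Cxcl2 were thus called, beside 5.07% of all genes. With nested preparation blocks Cxcl3 was called as well (4.48, adjusted p = 0.000203), where 2730 of 13294 genes were. Cxcl1 was called under each alternative run and without each of the 24 libraries in turn, while the Cxcl2 call was lost without any one of 9 libraries (adjusted p up to 0.144, without WT 0.1 ng/ml replicate 1) and without the Rn45s-rich libraries (0.0671).

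The difference between FN and 10 ng/ml Re-LPS depended on genotype for Cxcl1, at -3.51 ± 0.83 (adjusted p = 0.0174). Cxcl2 (-2.96 ± 1.12) and Cxcl3 (-3.69 ± 1.40) were not called (adjusted p = 0.147 each) and Cxcl5 had an adjusted p of 0.549 with no filter. Cxcl1 was thus called, beside 5.9% of all genes. With the replicate block Cxcl2 (-2.98, adjusted p = 0.00913) and Cxcl3 (-3.81, adjusted p = 0.00226) were called as well, where 1582 of 13294 genes were. The Cxcl1 call was lost without KO FN replicate 2 (adjusted p = 0.0513), WT FN replicate 1 (0.0562) or WT 10 ng/ml replicate 2 (0.0602).

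Ordered by mean level, KO cells at 10 ng/ml came first for each of the 4 genes. For Cxcl1 they stood clear of the next group, WT FN, at 487 ± 166 against 175 ± 88.1 CPM (mean ± SD, n = 3). WT at 10 ng/ml followed at 154 ± 50.2 CPM, overlapping WT FN, and KO FN at 48.6 ± 23.3 CPM overlapped WT at 0.1 ng/ml at 28.2 ± 25.7 CPM. For Cxcl2 the order was the same from KO 10 ng/ml (3091 ± 1018 CPM) through WT FN (1374 ± 799) and WT 10 ng/ml (1138 ± 360) to KO FN (481 ± 292.5), where each of the first 2 overlapped the group after it and WT 10 ng/ml did not overlap KO FN. Cxcl3 stood at 328 ± 149 CPM in KO cells at 10 ng/ml and 181 ± 172.5 CPM in WT FN, again with overlap. For Cxcl5 the KO cells at 10 ng/ml (2.07 ± 1.12 CPM) did not overlap KO FN (0.324 ± 0.0689 CPM), the next group.

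Per kb of exon, Cxcl2 made up 62.7% to 86.5% of the summed level of the 4 genes in every library, while Cxcl1 ranged from 6.85% to 29% and Cxcl3 from 3.9% to 20.9%. In WT cells the log2 ratio of Cxcl2 to Cxcl1 counts was 3.81, 4.04 and 3.41 at 0.1 ng/ml and 2.97, 3.29 and 2.44 at 10 ng/ml, without overlap between the doses. In KO cells the doses overlapped, with 4.59, 2.85 and 3.07 at 0.1 ng/ml and 3.30, 2.44 and 2.24 at 10 ng/ml. The mean share of Cxcl2 in WT cells at 10 ng/ml was 67.4%, beside 18% for Cxcl1, 14.6% for Cxcl3 and 0.0182% for Cxcl5. Cxcl5 averaged 0.0554% in KO cells at that dose. Its mean share was higher in KO FN (0.0711%), in KO cells at 0.1 ng/ml (0.0874%) and in untreated WT cells (0.111%), where counts were few. The log2 ratio of Cxcl2 to Cxcl1 counts differed between KO and WT cells by -0.05 over the 18 stimulated libraries (exact permutation test within stimulus, two-sided p = 0.862). Cxcl3 to Cxcl1 differed by -0.59 (exact p = 0.183) and Cxcl3 to Cxcl2 by -0.54 (exact p = 0.037), which did not pass adjustment over the 3 ratios (0.862, 0.274 and 0.111). Averaged within each preparation, 3 KO against 3 WT, the exact p was 1.0, 0.5 and 0.2, where 0.1 is the smallest possible.

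Libraries of the same number deviated from their group means together. In WT cells replicate 1 was the highest of the 3 for Cxcl1, Cxcl2 and Cxcl3 in 4 of 4 groups. In KO cells replicate 1 was the highest for Cxcl2 and Cxcl3 in 4 of 4 groups, but replicate 3 was for Cxcl1 in 4 of 4. Over the 18 stimulated libraries the deviations of log2 CPM from the group mean correlated at 0.98 between Cxcl2 and Cxcl3, 0.827 between Cxcl1 and Cxcl2 and 0.801 between Cxcl1 and Cxcl3. For Cxcl5 the values were 0.315 to 0.45. These libraries share preparations and, for Cxcl2 and Cxcl3, some sequence, so the coefficients are descriptions only.

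Most genes of the T cell-attracting and monocyte-attracting chemokine classes were lower in KO cells at 10 ng/ml. Cxcl10, a ligand of CXCR3 on T cells, had 13360 ± 2180 CPM in WT and 3353 ± 2038 CPM in KO cells, a difference of -1.99 ± 0.53 (adjusted p = 0.0143). Cxcl9, another CXCR3 ligand, fell from 797.5 ± 344 to 61.5 ± 29.5 CPM (-3.70 ± 0.64, adjusted p = 0.000576). Ccl2, the main monocyte attractant through CCR2, stood at 2553 ± 176 and 659 ± 314 CPM (-1.95 ± 0.56, adjusted p = 0.0227), and its neighbour Ccl7 at 814 ± 50.4 and 102 ± 29.1 CPM (-3.00 ± 0.45, adjusted p = 0.000137). Of the T cell-attracting list 3 of 4 were lower in KO cells and of the monocyte-attracting list 3 of 4, with medians of -2.85 and -2.56. No member of the macrophage inflammatory list was called (median -0.20), where Ccl3 differed by -0.32 ± 0.28 (adjusted p = 0.563) and Ccl4 by -0.64 ± 0.26 (adjusted p = 0.114, or 0.0381 with the replicate number as a block). With library totals in place of TMM the Ccl3 estimate was 0.01. Of all genes 15.9% were called in this comparison, with a median of 0.03 over those tested, and Cxcl1, Cxcl2 and Cxcl3 were not called by edgeR.

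With FN every one of these classes had called genes, all of them lower in KO cells. All 4 genes of the T cell-attracting list (median -7.31) and all 4 of the monocyte-attracting list (median -5.72) were called lower, as were 3 of 4 of the macrophage inflammatory list (median -1.92). Cxcl10 differed by -6.43 ± 0.65 (adjusted p = 3.53e-07) and Ccl2 by -5.92 ± 0.67 (adjusted p = 1.36e-06). The median of the 4 members was -1.68, with 1 called, and that of all genes was 0.02, with 38.6% called. At 0.1 ng/ml the T cell-attracting genes had a median of -4.90 (4 of 4 lower) and the monocyte-attracting genes one of -4.33 (3 of 4 lower), beside -2.73 for the members (3 of 4 lower) and 9.3% of all genes called.

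**Figure D3:**
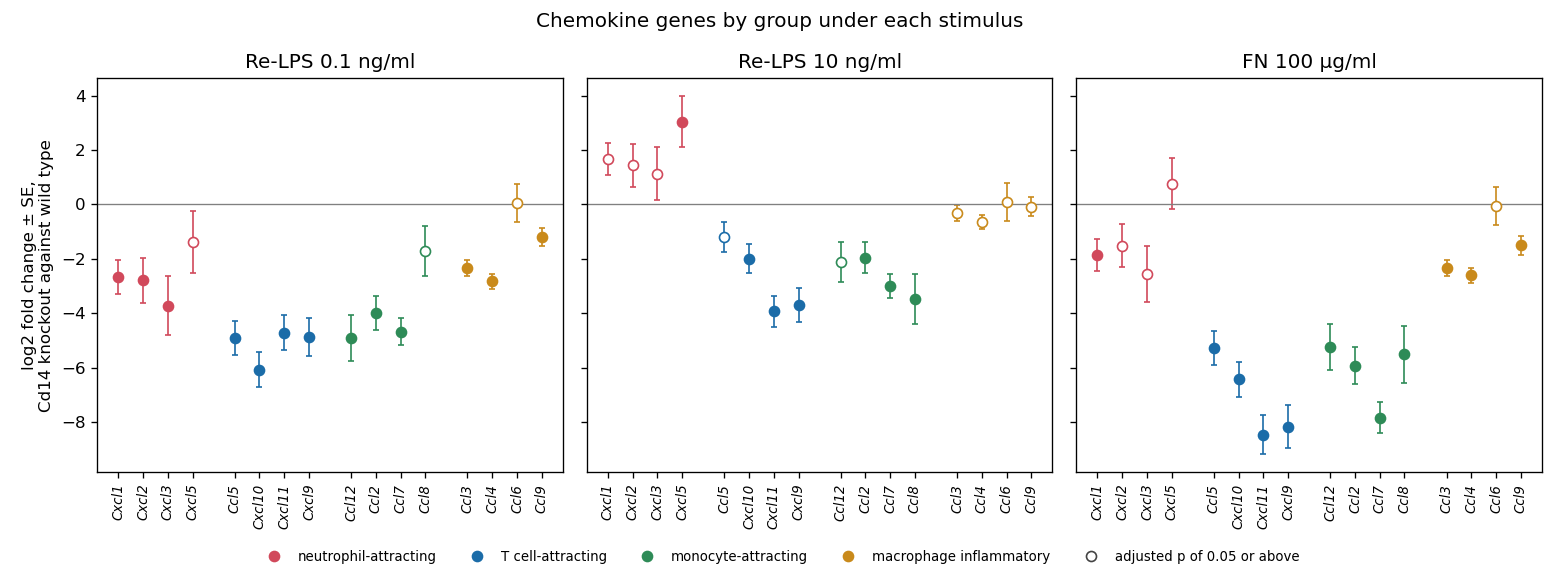
Log2 fold change ± SE of KO against WT cells (edgeR, 3 libraries a group) for 16 chemokine genes in 4 groups under each stimulus, with open symbols at an adjusted p of 0.05 or above. At 10 ng/ml the neutrophil-attracting genes lay above 0, with Cxcl1 at 1.66, and Cxcl10 and Ccl2 below it, at -1.99 and -1.95.

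Ratios within a library, which do not depend on scaling between libraries, were compared for 6 pairs chosen after these values had been seen. At 10 ng/ml the log2 ratio of Cxcl1 to Cxcl10 counts was -6.12, -6.79 and -6.54 in WT and -3.66, -3.32 and -0.77 in KO libraries. With FN it was -5.80, -6.07 and -7.34 in WT and -2.15, -2.93 and 0.10 in KO libraries. The genotypes did not overlap under any of the 3 stimuli for this pair, nor for Cxcl2 to Cxcl10. Averaged over the 3 stimuli the difference between KO and WT libraries ran from 2.69 for Cxcl3 to Ccl2 up to 4.20 for Cxcl1 to Cxcl10. At 10 ng/ml and with FN no pair overlapped between the genotypes, and at 0.1 ng/ml the 3 ratios to Ccl2 and Cxcl3 to Cxcl10 did. Cxcl10 and Ccl2 had been seen to be lower in KO cells when the pairs were chosen, so these ratios are a description with no test.

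**Figure D4:**
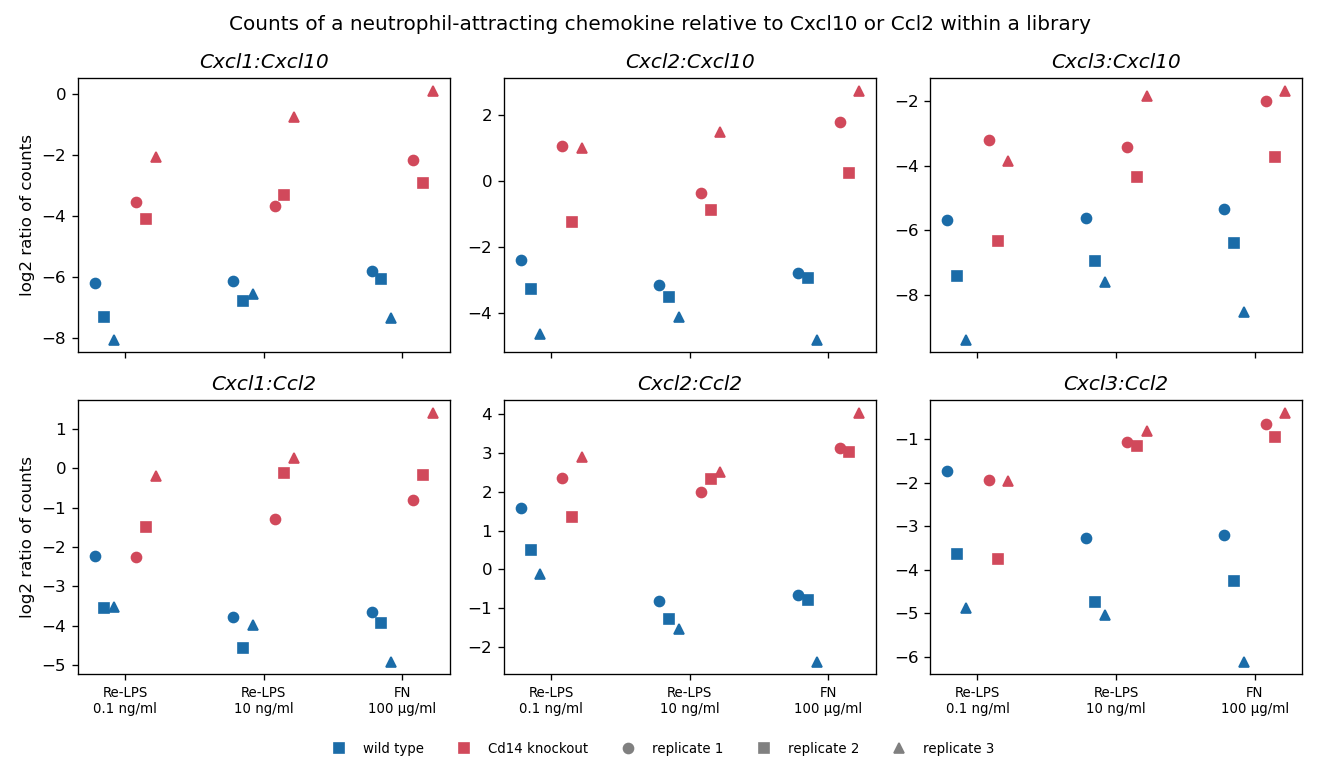
Log2 ratio of counts of Cxcl1, Cxcl2 or Cxcl3 to those of Cxcl10 (top) or Ccl2 (bottom) in each of the 18 stimulated libraries, with WT in blue, KO in red and the replicate number as the marker shape; axes differ between panels. KO libraries lay above WT libraries in all 6 panels at 10 ng/ml Re-LPS and with FN, where Cxcl1 to Cxcl10 averaged 3.90 and 4.74 higher.

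The surroundings of these chemokines in the pathway were read from further lists. Of the receptors, Cxcr2 had 17 counts over all 24 libraries and Cxcr1 had 5, and the scavenging receptors Darc (81 counts), Ccbp2 (7) and Cxcr7 (104) were also too low to test. The other CXCR2 ligands of the locus were scarce too, with 135 counts in all for Ppbp, which was tested and called in no comparison, and 2 for Cxcl15. Mthfd2l, a neighbour of the cluster, rose by 0.77 ± 0.23 in WT cells at 10 ng/ml (adjusted p = 0.00866). In the same comparison Pf4, which lies between the members, differed by 0.43 ± 0.60 (adjusted p = 0.631).

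These lists are first given for WT cells at 10 ng/ml against untreated cells, where 49.4% of all genes were called. All 8 tested genes of the list of granulocyte growth factors and inducing cytokines rose (median 8.15), among them Il6 by 10.46 ± 0.81 (adjusted p = 5.55e-09), Il1a by 9.55 ± 0.71 (adjusted p = 3.55e-09) and Il1b by 8.31 ± 0.56 (adjusted p = 1.17e-09). Of 14 transcriptional regulators 11 rose and 1 fell, led by Nfkbiz, an IkB family co-activator, at 4.62 ± 0.30 (adjusted p = 7.15e-10) and Nfkbia, the NF-kB inhibitor, at 4.57 ± 0.26 (adjusted p = 2.08e-10). Of 9 mRNA decay and stability factors 4 rose and 2 fell. Zfp36, which encodes tristetraprolin, rose by 3.32 ± 0.26 (adjusted p = 6.37e-09), Zc3h12a, the RNase regnase-1, by 3.93 ± 0.29 (adjusted p = 3.3e-09), and Zfp36l2 changed by -4.49 ± 0.54 (adjusted p = 1.24e-06). Of 10 surface anchors and proteases, which hold or cut chemokines at the cell surface, 4 rose, with Sdc4 at 7.02 ± 0.54 (adjusted p = 4.57e-09) and Mmp13 at 8.37 ± 0.54 (adjusted p = 7.5e-10).

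Between the genotypes at 10 ng/ml, where 15.9% of all genes were called, 1 of the 8 cytokine genes was, Il6, which was lower in KO cells by -1.64 ± 0.53 (adjusted p = 0.0418), at 198 ± 121 against 616 ± 139 CPM. Il1b stood at 6927 ± 995 and 5278 ± 1727 CPM (0.39 ± 0.41, adjusted p = 0.645). Zfp36 was lower in KO cells, 578 ± 91.6 against 1094 ± 207 CPM (-0.92 ± 0.24, adjusted p = 0.0123), and Zc3h12a differed by 0.03 ± 0.26 (adjusted p = 0.984). Nfkbiz (0.16 ± 0.26, adjusted p = 0.803) and Nfkbia (-0.12 ± 0.22, adjusted p = 0.848) were not called. Of the 14 regulators 2 were lower, Bcl3 (-0.82 ± 0.25, adjusted p = 0.0324) and Atf3 (-1.25 ± 0.24, adjusted p = 0.00112), the latter named after its value was seen. Of the surface list 1 was lower, Mmp13 (-1.57 ± 0.40, adjusted p = 0.011), and of the decay factors Srsf1 was higher (0.53 ± 0.14, adjusted p = 0.0109). With FN, where 38.6% of all genes were called, all 8 cytokine genes were lower in KO cells (median -3.82), Il6 by -8.08 ± 0.71 (adjusted p = 8.11e-08) and Il1b by -3.06 ± 0.44 (adjusted p = 1.96e-05), and so were Zfp36 (-2.09 ± 0.25, adjusted p = 2.27e-06) and 9 of 14 regulators. In that comparison 1 regulator was higher in KO cells, Fos (2.04 ± 0.37, adjusted p = 0.000193, named after its value was seen), and of the 9 decay factors 2 were lower and 3 higher, among them Zfp36l2 by 2.93 ± 0.50 (adjusted p = 0.000126).

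The genes whose log2 CPM followed a member most closely over the 24 libraries were taken from 10169 genes that reached 5 CPM on average in their highest group. For Cxcl1 they were St3gal1 (Pearson r = 0.989), Maff (0.987), Nlrp3 (0.986), Sod2 (0.986) and Tnip1 (0.984). For Cxcl2 they were St3gal1 (0.991), Irak2 (0.988), Sod2 (0.987), H2-M2 (0.987) and Tnip1 (0.986), so 3 genes stood in both lists. Cxcl3 was followed by Heca (0.982), Cxcl2 (0.982), Adm (0.981), Opa3 (0.98) and Brpf3 (0.979). Cxcl5 had weaker partners, the closest being Grlf1 at 0.926. The libraries share treatments and preparations, and each r is given as a description.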

How the data were processed

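RNA from 24 microglial libraries was sequenced after TruSeq preparation, per the labels' protocols. The authors' deposited table held read counts of 18919 gene symbols per library, and a second deposited table held a normalized signal for 12889 of them, which equalled the count over 1 factor per library to within 0.144. Per the submitters' processing notes Bowtie2 2.1.0 and HTSeq 0.5.4 were among the tools, beside SAMtools 0.1.19, CASAVA 1.8.2, DESeq and FastQC 0.10.0, and the build was mm10; the annotation and strand setting are not given in the sources used here. Reads shared by paralogs could therefore be lost or split, which bears on Cxcl2 and Cxcl3. TruSeq counts hold no molecular identifiers, so counting intervals (95%, exact) and floors (3 counts over a group) cover counting error only. Totals of 14939019 to 22143774 counts limit precision for Cxcl5, which had 0 to 49 counts per library.

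Counts were fitted with edgeR 4.0.16 (robust quasi-likelihood, TMM, filterByExpr at 10 counts and a total of 15, 16 residual degrees of freedom) in R 4.3.3, without a block, and p-values were adjusted within each of 19 contrasts, of which 2 were added after the data had been seen. The prior count for fold changes was 0.125. Standard errors are the log2 change over the square root of F. Where a group held 3 counts of Cxcl5 or fewer, the ratio of pooled counts is given in place of the fitted change. Ratios within libraries used counts + 0.5 and exact permutation of genotype within stimulus.

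The 4 genes and all lists were chosen with earlier results of these data known. The members are named always, and so are the receptors and other CXCR2 ligands. From each other list up to 4 called genes with the largest change in WT cells at 10 ng/ml and up to 2 uncalled genes with the highest level were eligible. Motifs, neighbours and the 5 genes most like each member follow the same plan. Of the 3 promoters shown, each is credited to RefSeq on GRCm38.p6, and 3 of the 4 members matched.

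Same-numbered libraries were checked for pairing over 9582 genes. Deviations from group means correlated at 0.67 to 0.969 within a genotype and at 0.276 to 0.895 between genotypes at the same treatment, so every pair was above 0.1. Libraries of other numbers ran from -0.803 to 0.444 within a genotype and from -0.802 to 0.76 between genotypes. Between genotypes these ranges overlap, so a pairing of KO with WT preparations is uncertain. The pairing comes from the data, while the series describes independent preparations. Alternatives were the replicate block over all libraries or nested in genotype, DESeq2 1.42.0, limma 3.58.1 on log2 of the deposited signal plus 1, RLE scaling, library totals, no filter, a filter of 5 CPM in 3 libraries, the compared groups alone, and leaving out each library. Leaving out the 3 libraries rich in Rn45s was added after the data had been seen. Scripts were tested on simulated counts.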

Additional observations from a re-analysis of the deposited data

Results flagged for a closer look

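Differences between the genotypes in how 2 stimulated groups compare were called for 2 of the 4 chemokines, in both cases by edgeR's test of the interaction itself. For Cxcl1 the log2 step from 0.1 to 10 ng/ml Re-LPS was larger in KO cells by 4.32 ± 0.85 (adjusted p = 0.00527), with levels of 4.27, 3.84 and 5.24 CPM at the low dose and 411, 373 and 678 CPM at the high dose in KO cells, beside 56.6, 21.6 and 6.54 CPM and 198, 99.1 and 165 CPM in WT cells. For Cxcl2 that step was larger by 4.23 ± 1.15 (adjusted p = 0.0384). The change from 10 ng/ml Re-LPS to FN was lower in KO cells for Cxcl1 by -3.51 ± 0.83 (adjusted p = 0.0174), with 52.1, 23.8 and 70.05 CPM in KO and 271, 156 and 97.9 CPM in WT cells with FN. Without single libraries the Cxcl2 call and the Cxcl1 call with FN were lost (adjusted p up to 0.144 and 0.0602). Of all genes 5.07% and 5.9% were called. For the dose step 6 of 8 cytokine, 2 of 4 T cell-attracting, 2 of 4 macrophage inflammatory and 0 of 4 monocyte-attracting genes were called higher. For FN against 10 ng/ml 8 of 8, 4 of 4, 2 of 4 and 2 of 4 were called lower. Both contrasts were added after the data had been seen and share the 10 ng/ml libraries.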

How the results depend on the processing

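Of 2535 fold changes of members recomputed under an alternative, 2353 kept their direction and their side of the threshold, 97 lost a call, 68 gained one and 17 changed sign, of which 0 had a call in either fit. The causes of these moves were not tested. Library totals in place of TMM shift the median gene by -0.80 in WT cells at 10 ng/ml, -0.79 in WT FN, -0.49 in KO cells at 10 ng/ml, and by 0.32 and 0.66 for KO against WT at 10 ng/ml and with FN.

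In KO cells at 0.1 ng/ml against untreated, 1 member was called as reported, 2 with library totals, the 5 CPM filter, without the Rn45s-rich libraries or by DESeq2, 0 with no filter, and 0 to 2 when single libraries were left out. For KO against WT at 0.1 ng/ml the count of 3 became 1 with no filter, 0 with the compared groups alone and 1 by limma (0 to 3 without single libraries). At 10 ng/ml, with Cxcl5 left aside, no member was called in the reported fit. Cxcl1 was called with library totals (adjusted p = 0.0089), the 5 CPM filter (0.0469), DESeq2 (0.0274) and limma (0.0405). The compared groups alone called Cxcl1 (0.0385) and Cxcl2 (0.0477). Without WT 0.1 ng/ml replicate 1 or 3, Cxcl1 was called too (0.0282 and 0.0223). With FN the count of 1 became 0 with library totals and 2 with the 5 CPM filter, without the Rn45s-rich libraries and by DESeq2 (0 to 2). For the interactions with 0 calls, DESeq2 gave 1 at 0.1 ng/ml (0 to 1 without single libraries). At 10 ng/ml limma called only Cxcl5 (adjusted p = 0.00728), which is left aside there. For the WT dose step the count of 1 became 0 with the compared groups alone and 2 by limma (1 to 2). For FN against 10 ng/ml in KO cells, with Cxcl5 left aside, the count of 3 became 1 with no filter. It was as low as 1 without single libraries. The 2 calls of the dose interaction became 1 with no filter, with the compared groups alone and without the Rn45s-rich libraries (1 to 3). The single call of the FN interaction against 10 ng/ml became 2 by DESeq2 (0 to 1 without single libraries). Limma added only Cxcl5, which is left aside there. In the other comparisons each alternative's count was within 1.5 times the reported one.

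With the replicate block over all libraries the counts were 2 for KO cells at 0.1 ng/ml, 4 and 3 for KO against WT at 10 ng/ml and with FN, 3 for the WT dose step and 3 for the FN interaction against 10 ng/ml. With the replicate block nested in genotype they were 2 for KO cells at 0.1 ng/ml, 1 for the interaction at 10 ng/ml, 3 for the WT dose step, 4 for the dose interaction and 3 for the FN interaction. Both counts of 4 include Cxcl5, which is left aside in comparisons with KO cells at 10 ng/ml. The other members called there were Cxcl1, Cxcl2 and Cxcl3 in both. The block over all libraries ended 1 call, that of Cxcl5 in WT FN (adjusted p = 0.0526), and the nested block made the FN against 10 ng/ml estimate of Cxcl3 in WT cells -0.034. Cxcl5 aside, no member call changed with a block outside the comparisons named here or in the results.

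No value that changed sign was called in either fit. Between untreated genotypes they were -0.031 and -0.131 for Cxcl1, 0.293 for Cxcl2 and 0.386 for Cxcl3, each without 1 untreated library, within ranges up to 1.138 for Cxcl1 and down to -1.528 for Cxcl2 and -1.268 for Cxcl3 without single libraries. For the interaction of Cxcl5 at 0.1 ng/ml they were -0.245 without the Rn45s-rich libraries, -1.372 without WT untreated replicate 1, -0.506 by DESeq2 and -0.057 by limma, with values up to 1.083 without single libraries, and for Cxcl2 with FN 0.015 without KO untreated replicate 1, in a range from -1.807. For FN against 10 ng/ml in WT cells they were -0.278 and -0.221 for Cxcl1 and Cxcl2 and -0.833 for Cxcl3 without WT FN replicate 1, -0.05 for Cxcl1 without WT 10 ng/ml replicate 2, -0.029 for Cxcl3 without WT 10 ng/ml replicate 3 and also without the Rn45s-rich libraries, and 0.198 for Cxcl5 without WT FN replicate 3. The other ends of these ranges without single libraries were 0.474, 0.643 and 1.102 for Cxcl1, Cxcl2 and Cxcl3 and -2.575 for Cxcl5. Ccl3 in KO against WT cells at 10 ng/ml was 0.007 with library totals. The Cxcl2 to Cxcl1 ratio ran from -0.227 to 0.062 without single libraries, positive in 6 cases (0.001, 0.018, 0.023, 0.026, 0.057 and 0.062).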
